A study of Mus musculus with 24 samples.

Results

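Transcripts of 31 genes known from platelets and megakaryocytes were followed in RNA of plasma extracellular vesicles, the membrane-enclosed particles that cells shed into blood. The genes were taken by symbol from a fixed list, and all 31 were among the 21960 genes of the count table. Of these, 27 passed the filter on low counts and were tested within the 4112 genes that passed it. A gene could pass through any 6 libraries in which it was high, whether or not they belonged to the same group. The 24 libraries came from male mice of the inbred strain C57BL/6J. They fell into 4 groups of 6: mice whose bile duct was tied off and sham-operated mice, each with plasma taken 8 or 15 days after surgery. Ligation stops the flow of bile and leads to cholestasis and liver fibrosis. The labels give no age and do not state that the numbered samples of a group are separate animals, so p-values measure only the spread between these samples. The tissue label reads liver, whereas the site label reads extracellular vesicles. Hepatocyte markers held 0.0100% ± 0.00483 of the counts in sham libraries at day 8 (SD, n = 6), with 0 of 25 at 0 over all libraries.

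Platelets are anucleate cells that bud from megakaryocytes in the bone marrow and carry megakaryocyte transcripts into the circulation. At a wound they stick to von Willebrand factor through the GPIb-IX-V receptor and to collagen through GPVI, and they bind each other through fibrinogen on the integrin αIIbβ3. ADP, thromboxane and the contents of their granules spread the activation, and activated platelets shed vesicles into plasma. The 31 genes were grouped by these roles: 6 adhesion receptor subunits, 6 activating receptors and co-receptors, 9 granule and coagulation proteins, 3 enzymes of eicosanoid synthesis, and 7 cytoskeletal and signalling proteins.

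Together the 31 genes held between 0.223% and 2.15% of the counts of a library. At day 8 the summed share was 0.909% ± 0.652 after sham surgery and 1.07% ± 0.856 after ligation (SD, n = 6 each). At day 15 it was 0.372% ± 0.113 and 0.358% ± 0.0580 (SD, n = 6 each). The day 8 libraries split by their number within both groups. Sham libraries 1 to 3 had shares of 0.303%, 0.581% and 0.309%, and libraries 4 to 6 had 1.24%, 1.04% and 1.99%. Ligated libraries 1 to 3 had 0.410%, 0.518% and 0.223%, and libraries 4 to 6 had 2.15%, 2.09% and 1.05%. All 6 of the day 8 libraries numbered 4 to 6 therefore lay above the other 18 libraries, while the 6 numbered 1 to 3 overlapped the range of day 15. Counting error was small beside the split: the exact (Clopper-Pearson) 95% binomial interval of the sham library with 1.99% ran from 1.96% to 2.02%. In such mixed RNA, a smaller contribution from platelets and less RNA of each gene per platelet vesicle cannot be told apart. Total counts differed between the sets of day 8 libraries as well: libraries 4 to 6 had 535737 to 937963 counts, libraries 1 to 3 had 101733 to 349386, and day 15 libraries had 157133 to 465744. Within libraries 4 to 6, the sham libraries had the same order by counts and by share. Among the ligated ones, the library with the most counts, 937963, had the lowest share, 1.05%. The labels state that libraries were sequenced in pools but not which libraries shared a pool, and they do not call the numbers a batch. The part of depth in the split was not tested.

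**Figure D1:**
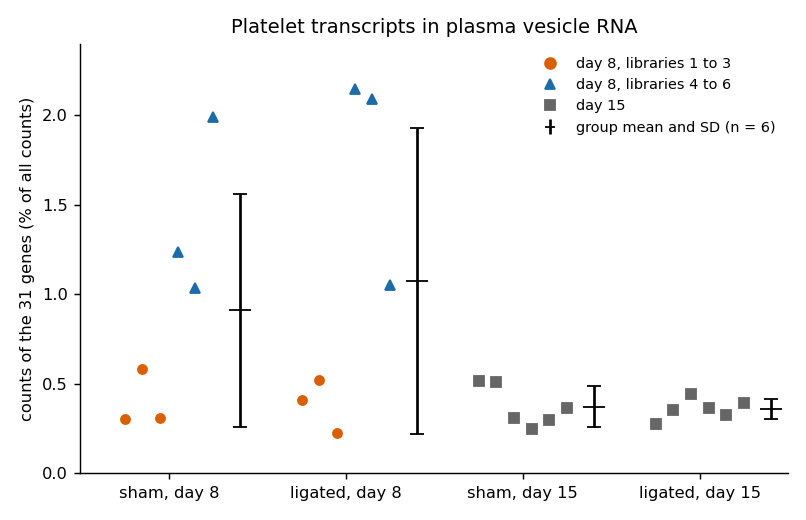
Summed counts of the 31 platelet genes as a percentage of all counts (vertical axis) in each library of the 4 groups, ordered by library number within a group. Black bars give the group mean and SD (n = 6); the 6 day 8 libraries numbered 4 to 6 lie between 1.04% and 2.15%, and the other 18 libraries at or below 0.581%.

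Levels of different genes were compared per kilobase of annotated exon, as normalised CPM (counts scaled to a common library total) per kilobase, averaged over the 24 libraries. Ppbp, which encodes the precursor of the chemokine CXCL7, was highest at 987, followed by Pf4 (platelet factor 4, the chemokine CXCL4) at 533. Gng11, a G protein gamma subunit, stood at 360 and Nrgn, the calmodulin-binding protein neurogranin, at 281. Tubb1, the beta-tubulin of the platelet microtubule ring, and Gp9, the smallest subunit of the von Willebrand factor receptor, stood at 222 and 209. At the low end were Selp (P-selectin) at 3.5, the ADP receptor gene P2ry1 at 3.36 and Tbxas1 (thromboxane synthase) at 2.27. These last 3 had 166, 164 and 258 counts in all and did not pass the filter. The order of levels was not the same in the 2 sets of day 8 libraries. Itga2b, the αIIb integrin subunit, ranked 19 of the 31 per kilobase in libraries 1 to 3 and 9 in libraries 4 to 6, F5 (coagulation factor V) ranked 25 and 15, and Sparc, a collagen-binding secreted protein, ranked 8 and 25.

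Mmrn1, which encodes the factor V-binding granule protein multimerin 1 (GRCm38 chromosome 6, 60924976 to 60989378, plus strand), had 0 counts in all 24 libraries. Over 9478519 summed counts, a count of 0 allows up to 0.317 CPM (3 counts).

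The 6 adhesion receptor genes were all more than 2-fold higher in day 8 libraries 4 to 6 than in libraries 1 to 3, from 3.08-fold to 10.9-fold. In sham libraries 1 to 3, Itga2b (chromosome 11, 102453297 to 102470122, minus strand) had 47.8, 130 and 45.8 normalised CPM, against 777, 628 and 1226 in libraries 4 to 6. In ligated libraries 1 to 3 it had 158, 127 and 100, against 1600, 1513 and 914. At day 15 it ran from 26.95 to 132 after sham surgery (median 73.8) and from 76.0 to 120 after ligation (median 102). Its partner Itgb3 (the β3 subunit, chromosome 11, 104608000 to 104670476, plus strand) had 38.2, 151 and 80.1 CPM in sham libraries 1 to 3 and 708, 534 and 1311 in libraries 4 to 6. After ligation the same libraries had 194, 109 and 116, and 1470, 1566 and 785. Day 15 values of Itgb3 ran from 50.1 to 168 in sham (median 78.4) and from 109 to 231 in ligated libraries (median 157). For both integrin subunits every library numbered 4 to 6 lay above every other library. In the model with separate means for these libraries, Itga2b was 10.9-fold and Itgb3 8.99-fold higher in libraries 4 to 6, averaged over sham and ligated. The ratio of Itga2b to Itgb3 counts was 0.921 ± 0.249 in libraries 1 to 3 and 1.07 ± 0.1004 in libraries 4 to 6 (SD, n = 6 each), so the ratio of the 2 subunits moved by less than its spread in libraries 1 to 3. The 4 genes of the GPIb-IX-V receptor rose less: Gp5 4.87-fold, Gp1ba 3.94-fold, Gp1bb 3.14-fold and Gp9 3.08-fold. Gp1ba, which carries the binding site for von Willebrand factor, had 28.7, 59.8 and 22.9 CPM in sham libraries 1 to 3 and 120, 107 and 215 in libraries 4 to 6, and 71.8, 72.6 and 31.7 against 281, 279 and 138 after ligation. At day 15 it ran from 3.85 to 53.1 in sham (median 24.4) and from 15.8 to 46.9 in ligated libraries (median 35.1). Gp5, the receptor's thrombin-cleaved subunit, had 57.4, 21.1 and 25.8 CPM in sham libraries 1 to 3 against 113, 125 and 206 in libraries 4 to 6, and 35.9, 36.3 and 31.7 against 201, 200 and 99.4 after ligation. At day 15 it ran from 3.85 to 53.1 (median 20.0) and from 19.1 to 32.5 (median 25.9). The 2 sets of day 8 libraries did not overlap for either gene, and libraries 1 to 3 overlapped day 15. Counts of Gp1bb are uncertain, since its gene model overlaps Sept5 on the same strand.

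The 250 bases before the RefSeq start are shown for 4 members: Itga2b, with the third largest rise between the sets of day 8 libraries, Gp1ba and Gp5, the only members with matches to both motifs searched, and Pf4, with the smallest rise. Promoters come from RefSeq on GRCm38.p6, where 25 of the 31 genes were matched, and are written in the direction of transcription. By the GENCODE coordinates given above, transcription of Itga2b starts at 102470122, inside its RefSeq window. Most of that window, with both marked matches, thus lies within the GENCODE gene. Capitals mark matches on either strand to the letters bound by GATA factors (AGATAA or TGATAA) or by ETS factors (AGGAAG or CGGAAG), both of which act in megakaryocytes. A match on the opposite strand appears as its reverse complement. The windows are chr11:102469884-102470133, minus strand for Itga2b, chr11:70638872-70639121, plus strand for Gp1ba, chr16:30310782-30311031, minus strand for Gp5 and chr5:90772185-90772434, plus strand for Pf4.
Itga2b: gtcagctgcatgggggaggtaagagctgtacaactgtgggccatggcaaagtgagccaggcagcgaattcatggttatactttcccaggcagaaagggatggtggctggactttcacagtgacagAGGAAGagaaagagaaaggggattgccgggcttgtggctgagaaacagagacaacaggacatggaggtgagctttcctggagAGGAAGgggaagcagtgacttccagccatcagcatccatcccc
Gp1ba: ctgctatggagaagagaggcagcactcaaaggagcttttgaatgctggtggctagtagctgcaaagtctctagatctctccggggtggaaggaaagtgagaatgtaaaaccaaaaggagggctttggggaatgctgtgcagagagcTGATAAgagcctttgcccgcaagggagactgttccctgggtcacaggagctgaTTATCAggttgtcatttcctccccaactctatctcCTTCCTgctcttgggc
Gp5: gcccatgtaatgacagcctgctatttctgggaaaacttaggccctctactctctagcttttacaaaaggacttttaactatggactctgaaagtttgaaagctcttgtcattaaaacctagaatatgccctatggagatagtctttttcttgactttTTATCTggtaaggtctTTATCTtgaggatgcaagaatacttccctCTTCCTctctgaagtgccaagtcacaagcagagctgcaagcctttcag
Pf4: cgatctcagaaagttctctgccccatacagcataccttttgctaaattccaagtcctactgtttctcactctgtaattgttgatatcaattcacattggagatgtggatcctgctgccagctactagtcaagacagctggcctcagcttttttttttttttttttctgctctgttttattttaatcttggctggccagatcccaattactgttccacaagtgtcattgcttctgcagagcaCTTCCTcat
GATA letters occurred in 6 of the 25 members (24%), against 16.99% of 27025 promoter windows of the same length, and ETS letters in 13 of 25 (52.0%), against 38.95%. Both occurred in 2 of 25 (8.0%), against 5.57%, and no GATA match overlapped an ETS match in these members. The window of Ppbp, the member with the highest level, held neither motif. A match is a description of the letters and not evidence of binding.

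Among the activating receptors, Clec1b (the podoplanin receptor CLEC-2, chromosome 6, 129397297 to 129409335, plus strand) had the most counts. It had 86.0, 144 and 68.7 CPM in sham libraries 1 to 3, against 222, 290 and 148 in ligated libraries 1 to 3. In libraries 4 to 6 it had 235, 285 and 488 after sham surgery and 600, 576 and 323 after ligation. Its day 15 values ran from 86.9 to 190 in sham (median 124) and from 141 to 224 in ligated libraries (median 162). Its level was thus higher on average after ligation in both sets of day 8 libraries, and the ranges overlapped in libraries 4 to 6. In libraries 1 to 3 the lowest ligated value, 148 (28 counts), lay only just above the highest sham value, 144 (41 counts). So small a gap on so few counts does not separate the groups, and the share of all genes separated in this way was not computed. The rise in libraries 4 to 6 over 1 to 3 was 2.75-fold for Clec1b. It was larger for the ATP-gated channel P2rx1 (7.99-fold), the collagen receptor Gp6 (4.82-fold), the granule-stored receptor Treml1 (4.65-fold) and the ADP receptor P2ry12 (3.41-fold), the target of clopidogrel. P2rx1 was low throughout libraries 1 to 3, with 9.56, 21.1 and 8.58 CPM after sham surgery and 14.4, 18.2 and 10.6 after ligation, and higher in libraries 4 to 6, with 38.9, 60.5 and 165, and 181, 171 and 80.3. Its day 15 values ran from 0 to 36.2 in sham (median 19.7) and from 7.64 to 28.9 in ligated libraries (median 20.0). Gp6 had 9.56, 52.8 and 22.9 CPM in sham libraries 1 to 3 against 98.1, 107 and 186 in 4 to 6, and 28.7, 42.4 and 26.4 against 229, 225 and 108 after ligation. P2ry12, whose gene lies within Med12l on the opposite strand, had 47.8, 73.9 and 37.2 against 153, 112 and 221 in sham, and 57.4, 78.6 and 37.0 against 274, 238 and 145 after ligation. Treml1 had 19.1, 28.2 and 14.3 against 76.4, 39.1 and 116 in sham, and 14.4, 36.3 and 5.28 against 110, 150 and 62.3 after ligation. For these 4 receptors, all of libraries 4 to 6 exceeded all of libraries 1 to 3. At day 15 Gp6 ran from 7.70 to 57.5 in sham libraries (median 23.7) and from 12.96 to 39.7 in ligated libraries (median 25.7). P2ry12 ran from 2.90 to 38.5 (median 28.7) and from 12.96 to 57.0 (median 31.2), and Treml1 from 6.18 to 44.3 (median 16.7) and from 0 to 18.04 (median 15.0). At day 15 these 3 receptors lay near or below the range of libraries 1 to 3, and Treml1 alone reached into the range of libraries 4 to 6, in 1 sham library.

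**Figure D2:**
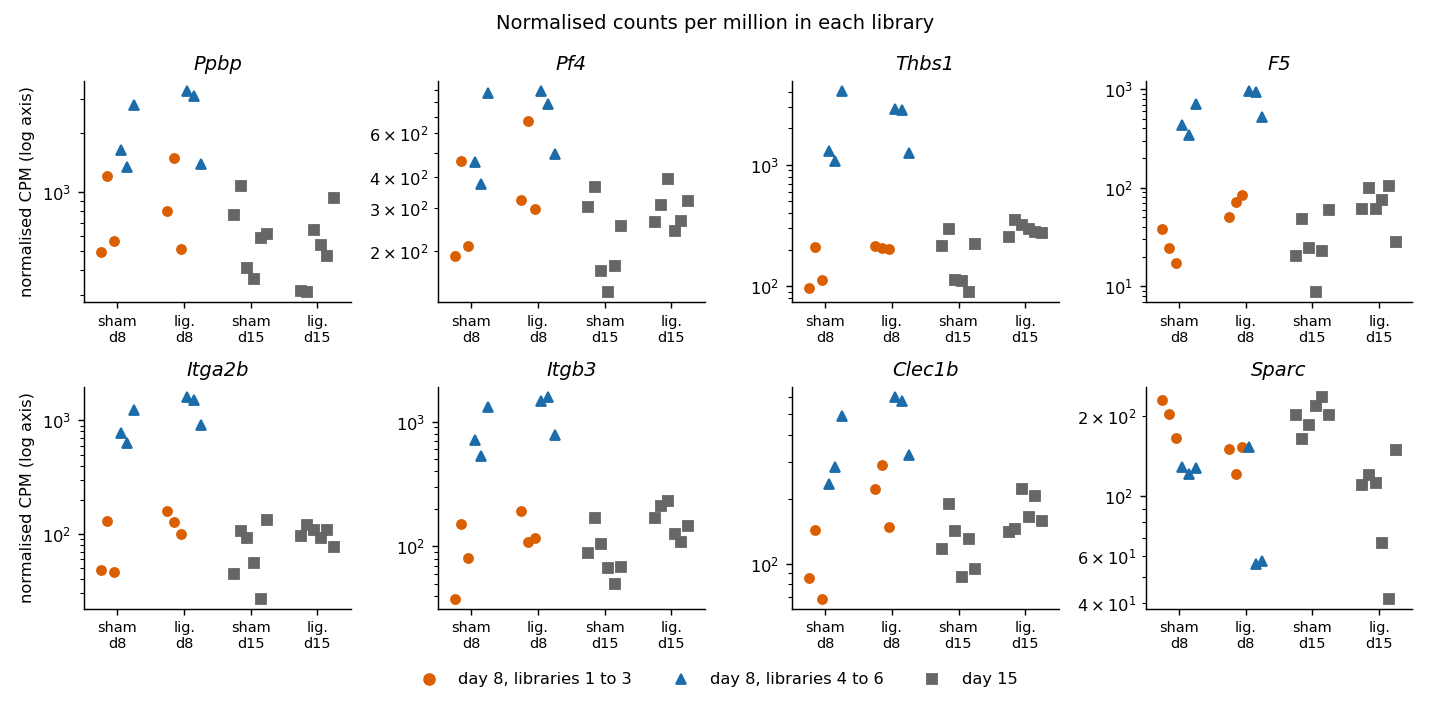
Normalised CPM (log axis) of 8 members in each library of the 4 groups, ordered by library number within a group, with day 8 libraries 1 to 3 (circles), 4 to 6 (triangles) and day 15 (squares). Thbs1, F5, Itga2b and Itgb3 stand 8.99-fold to 15.4-fold higher in the triangles than in the circles, Pf4 1.80-fold, and Sparc does not rise.

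The granule and coagulation genes held both the largest and the smallest shifts. F5 (chromosome 1, 164151838 to 164220277, plus strand) had 38.2, 24.6 and 17.2 CPM in sham libraries 1 to 3 and 433, 345 and 707 in libraries 4 to 6, and 50.2, 72.6 and 84.5 against 957, 948 and 519 after ligation. This rise of 15.4-fold ranked 1 among all 4112 genes tested. Thbs1 (thrombospondin 1, an adhesive alpha-granule protein, chromosome 2, 118111876 to 118127133, plus strand) rose 12.96-fold, from 95.6, 211 and 112 to 1302, 1078 and 4073 in sham and from 215, 206 and 201 to 2904, 2829 and 1266 in ligated libraries. At day 15 F5 ran from 8.69 to 59.8 in sham (median 23.9) and from 28.5 to 104 in ligated libraries (median 68.4), and Thbs1 from 88.6 to 297 (median 162) and from 252 to 350 (median 285). For both genes libraries 4 to 6 stood far above the rest. F13a1, the A subunit of the fibrin cross-linking factor XIII, rose 3.84-fold. The chemokines and Vwf moved far less. Ppbp (chromosome 5, 90768518 to 90770063, plus strand) had 497, 1214 and 564 CPM in sham libraries 1 to 3 and 1643, 1343 and 2793 in libraries 4 to 6, and 804, 1494 and 512 against 3284, 3100 and 1393 after ligation, a 2.64-fold rise with overlapping ranges. Vwf, the adhesive ligand of the GPIb-IX-V receptor, had 249, 549 and 361 against 750, 591 and 1151 in sham, and 337, 448 and 322 against 1313, 1202 and 814 after ligation, a 2.52-fold rise. Pf4 (chromosome 5, 90772435 to 90773383, plus strand) had 191, 465 and 209 against 459, 375 and 875, and 323, 672 and 296 against 889, 785 and 495, a 1.80-fold rise with overlapping ranges. At day 15 Ppbp ran from 362 to 1071 in sham (median 598) and from 308 to 932 in ligated libraries (median 505), and Vwf from 185 to 941 (median 290) and from 116 to 389 (median 267). Pf4 ran from 136 to 363 (median 213) and from 241 to 393 (median 286). Sparc alone was lower in libraries 4 to 6, at 0.635 of its level in libraries 1 to 3. It had 230, 204 and 166 against 128, 121 and 127 in sham, and 151, 121 and 153 against 153, 55.9 and 57.5 after ligation.

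The make-up of the platelet counts therefore differed between the 2 sets of day 8 libraries, not only their sum. Per count of Pf4 there were 0.295 ± 0.108 counts of Itga2b in libraries 1 to 3, 1.72 ± 0.184 in libraries 4 to 6 and 0.345 ± 0.129 at day 15 (SD, n = 6, 6 and 12). For Thbs1 the same ratio was 0.523 ± 0.139, 3.30 ± 0.758 and 0.868 ± 0.200, and for F5 0.147 ± 0.0856, 1.00 ± 0.140 and 0.191 ± 0.108. Ppbp kept closer to Pf4, at 2.39 ± 0.363, 3.47 ± 0.402 and 2.26 ± 0.725. In libraries 4 to 6 the ratios to Pf4 of Itga2b (1.40 to 1.93), Thbs1 (2.56 to 4.65) and F5 (0.808 to 1.21) lay outside all other libraries, whose highest values were 0.556, 1.22 and 0.392. As a share of the counts of the 31 genes, Ppbp and Pf4 made up 18.5% and 7.82% in libraries 1 to 3 and 13.6% and 3.94% in libraries 4 to 6, while Thbs1 made up 3.97% and 13.01%. Day 15 libraries, with 14.6%, 6.62% and 5.80%, were nearer to libraries 1 to 3.

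The enzymes and the cytoskeletal and signalling genes lay between these extremes. Alox12, the platelet 12-lipoxygenase (chromosome 11, 70241457 to 70255353, minus strand), had 76.5, 155 and 126 CPM in sham libraries 1 to 3 and 446, 350 and 627 in libraries 4 to 6, and 215, 169 and 89.8 against 846, 785 and 419 after ligation, a 4.08-fold rise. Its day 15 values ran from 50.1 to 243 in sham (median 137) and from 127 to 249 in ligated libraries (median 151). Ptgs1 (cyclooxygenase 1), which makes the precursor of thromboxane, rose 2.44-fold. Plek (pleckstrin, a major protein kinase C substrate of platelets, chromosome 11, 16971206 to 17052381, minus strand) had 277, 338 and 218 against 1008, 873 and 1487 in sham, and 438, 442 and 254 against 1880, 1748 and 935 after ligation, a 4.05-fold rise. At day 15 Plek ran from 217 to 518 in sham (median 260) and from 271 to 462 in ligated libraries (median 396). Nrgn had 277, 412 and 200 against 617, 608 and 976 in sham, and 345, 472 and 206 against 1098, 1102 and 608 after ligation, a 2.61-fold rise. Gng11 had 191, 370 and 160 against 467, 450 and 687, and 287, 442 and 222 against 886, 736 and 454, a 2.19-fold rise. At day 15 Nrgn ran from 177 to 402 in sham (median 226) and from 100 to 296 in ligated libraries (median 236), and Gng11 from 130 to 305 (median 183) and from 145 to 339 (median 228). The 2 sets of day 8 libraries did not overlap for Alox12, Plek, Nrgn or Gng11. The remaining rises in this role were 5.41-fold for Tubb1, 3.18-fold for Fermt3 (kindlin-3, which activates integrins), 3.00-fold for Rgs18, a regulator of G protein signalling, and 2.08-fold for Bin2, a membrane-bending protein.

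Over the 27 members tested, the median log2 difference of libraries 4 to 6 over 1 to 3 was 1.77, that is 3.41-fold, against 0.00215 over all 4112 genes. It exceeded 1 in 25 of 27 members and in 5.35% of all genes. All of libraries 4 to 6 lay above all of libraries 1 to 3 for 21 of 27 members and for 4.77% of all genes. The split was noticed from depth and from these counts, so it is described and not tested. A gene could also pass the filter on low counts through libraries 4 to 6 alone. Members and other genes low elsewhere could thus enter these counts because they were high there. The order of the members was alike after sham surgery and ligation (Spearman's rho 0.931 across 27 genes, which share the libraries, given as a description), and the difference varied between the treatments by at most 0.845 on the log2 scale, for F5. By role, the median log2 difference was 2.22 for activating receptors, 2.13 for adhesion receptors, 1.66 for the 2 enzymes tested, 1.58 for cytoskeletal and signalling genes and 1.40 for granule and coagulation genes. Longer genes tended to show larger differences among the members (rho 0.415 with exon length across 27 genes), against 0.0660 over 4110 genes with a length. Of the 50 genes with the largest difference, 13 were members and 9 others were in the further platelet lists. Markers of other blood and tissue cells, brain markers apart, did not share the rise as lists: the median log2 difference was -1.01 for 13 endothelial genes, -1.003 for 7 neutrophil genes, -0.90 for 20 hepatocyte genes, -0.46 for 5 fibroblast and stellate genes, -0.23 for 12 red cell genes, 0.037 for 7 monocyte and macrophage genes and 0.36 for 4 lymphocyte genes. Of 8 brain markers listed, the 1 tested had 0.79. Their summed share was 0.00292% to 0.00786% in libraries 1 to 3 and 0.0103% to 0.0136% in libraries 4 to 6, without overlap.

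**Figure D3:**
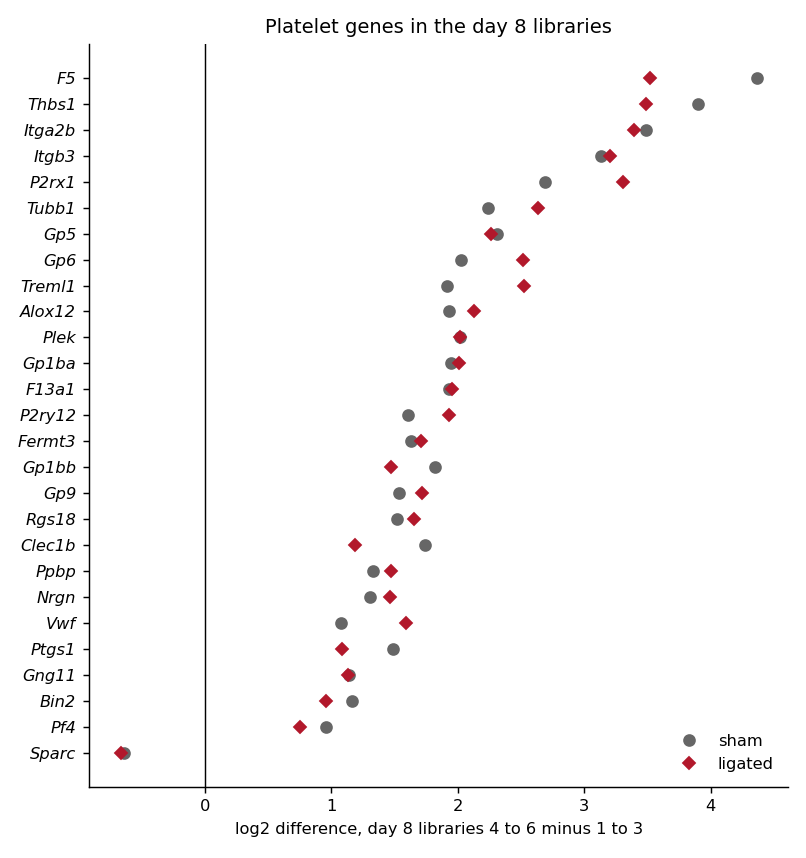
Log2 difference of day 8 libraries 4 to 6 over libraries 1 to 3 (horizontal axis) for the 27 members tested, in sham (circles) and ligated (diamonds) libraries, ordered by the average of both. All members but Sparc lie right of 0 in both treatments, from 0.85 for Pf4 to 3.94 for F5 on average.

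Bile duct ligation gave no called change in any member at day 8 in the main fit, which did not pair libraries by number. By edgeR's quasi-likelihood F-test with Benjamini-Hochberg adjustment over all genes, 0 of 27 members passed at an adjusted p of 0.05, while 3.14% of all genes did in either direction. DESeq2 also called 0. Without the filter on low counts, edgeR called 1 member higher, F13a1 (adjusted p = 0.0474), where 1.41% of all genes were called higher. In the main fit 0 of 27 had an unadjusted p under 0.05. With the library number as a block 9 had one, and 8 with the sets 1 to 3 and 4 to 6 as a model term. The estimates nevertheless leaned upwards: 26 of 27 were above 0, against 52.5% of all genes, with a median log2 fold change of 0.45 against 0.0236. Members share platelets and libraries, so these signs are not independent. The highest estimates were 0.81 for F13a1 (SE 0.42, adjusted p = 0.393), 0.73 for F5 (SE 0.66, adjusted p = 0.662) and 0.70 for Clec1b (SE 0.35, adjusted p = 0.363). Ppbp and Pf4 had 0.39 (SE 0.41) and 0.42 (SE 0.31). Sparc alone was below 0, at -0.51 (SE 0.28, adjusted p = 0.419). Within libraries 1 to 3 the median was 0.38 and 0 members passed, against 1.53% of all genes. Within libraries 4 to 6 it was 0.45, again with 0 passing, against 0.073% of all genes. Without sham library 6, the sham library richest in platelet counts, the median rose to 0.85 and 9 members had an unadjusted p under 0.05, but 0 passed the adjustment. Without ligated library 4 or 5 it fell to 0.22.

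Clec1b was the member closest to a call at day 8. Its log2 fold change was 1.12 (SE 0.36, adjusted p = 0.133) within libraries 1 to 3 and 0.57 (SE 0.30, adjusted p = 0.502) within libraries 4 to 6. With the library number as a block, same-numbered sham and ligated libraries of day 8 were paired. Clec1b then passed as the only member, at 0.81 (SE 0.23, edgeR adjusted p = 0.0466), where 4.11% of all genes were called higher. It was also the only member to pass with the sets 1 to 3 and 4 to 6 as a model term (edgeR adjusted p = 0.0457), where 4.06% of all genes were called higher. The gene model of Clec1b overlaps Clec9a, which had 14 counts in the whole table. Red cell markers moved with ligation at day 8 as well: 8 of 12 tested passed as higher, against 2.77% of all genes, and their summed share ran from 5.64% to 8.14% in sham and from 7.71% to 16.1% in ligated libraries. Hepatocyte markers passed as higher in 16 of 20, with summed shares of 0.00597% to 0.0167% in sham and 0.0487% to 0.469% in ligated libraries. Neutrophil markers passed in 2 of 7, with shares of 0.0131% to 0.146% and 0.0741% to 0.217%, and monocyte and macrophage markers in 2 of 7, with shares of 0.0484% to 0.0745% and 0.0480% to 0.128%. No marker of these 3 lists was at 0 over all libraries. F5 is also made by hepatocytes and F13a1 by monocytes and macrophages. The part of these cells in the estimates of the platelet genes was not tested.

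At day 15, Sparc was the only member called with ligation in the main fit. It had 201, 164, 185, 217, 235 and 201 CPM in sham libraries 1 to 6 and 111, 120, 112, 66.7, 41.5 and 149 in ligated libraries 1 to 6. Every ligated library thus lay below every sham library. Sparc was the only member of 27 whose day 15 groups did not overlap, while all ligated libraries lay below all sham libraries for 0.803% of all genes and above them for 2.38%. It fell by 1.02 on the log2 scale (SE 0.28, edgeR adjusted p = 0.0287), where 1.07% of all genes were called lower. The call was lost without ligated library 4 (-0.92, adjusted p = 0.0750) or 5 (-0.84, adjusted p = 0.0898) and without sham library 4 (-1.01, adjusted p = 0.0527) or 5 (-0.97, adjusted p = 0.0648). Sparc is made by fibroblasts and endothelial cells as well as megakaryocytes. Of 5 fibroblast and stellate markers tested, Col1a1 and Col1a2 also fell at day 15, by 1.55 and 1.42 on the log2 scale (adjusted p = 0.00992 and 0.0114), and the summed share of the 14 listed was 0.0573% to 0.153% in sham and 0.0363% to 0.0658% in ligated libraries, with 0 of 14 at 0. Endothelial markers gave 0 calls among 13 tested. The part of these cells in the fall of Sparc was not tested.

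No member was called higher at day 15 in the main fit, where 3.48% of all genes were, and DESeq2 gave the same count of 0 higher and 1 lower. Of the 27 estimates, 20 were above 0, against 48.4% of all genes, with a median of 0.36 against -0.0178. The largest was F5 at 1.26 (SE 0.86, adjusted p = 0.486), followed by Itgb3 at 0.86 (SE 0.67), Rgs18 at 0.85 (SE 0.46), Thbs1 at 0.76 (SE 0.73) and F13a1 at 0.76 (SE 0.47). F13a1 overlapped only through sham library 2, whose 164 CPM exceeded all ligated values of 109 to 163. That library also held the highest sham value for most members tested, among them Itgb3 (168), Thbs1 (296.5), Rgs18 (79.65), Plek, Tubb1 and Gp1bb. In a fit of the 12 day 15 libraries alone, 0 of 21 members tested were called higher, against 3.36% of all genes in that fit. Leaving out sham library 2 gave 7 of 22, against 6.0% of all genes: F5, Itgb3, Thbs1, F13a1, Rgs18, Gp1bb and Plek. For each of these but F5, the library left out held the highest sham value. F5 is also a hepatocyte gene, and hepatocyte markers rose after ligation: 20 of 20 tested passed at day 15, with summed shares of 0.00986% to 0.0185% in sham and 0.357% to 2.68% in ligated libraries. Their part in the estimate of F5 was not tested. At the low end, Treml1 had -0.74 (SE 0.74), Vwf -0.50 (SE 0.41), Nrgn -0.30 (SE 0.38) and Ppbp -0.25 (SE 0.41). The difference of the ligation effect between the days was called in 0 of 27 members by edgeR and by DESeq2. Of all genes, 0.0% were called by edgeR and 0.0243% by DESeq2. In edgeR the members had a median of -0.16, with 0 at an unadjusted p under 0.05.

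**Figure D4:**
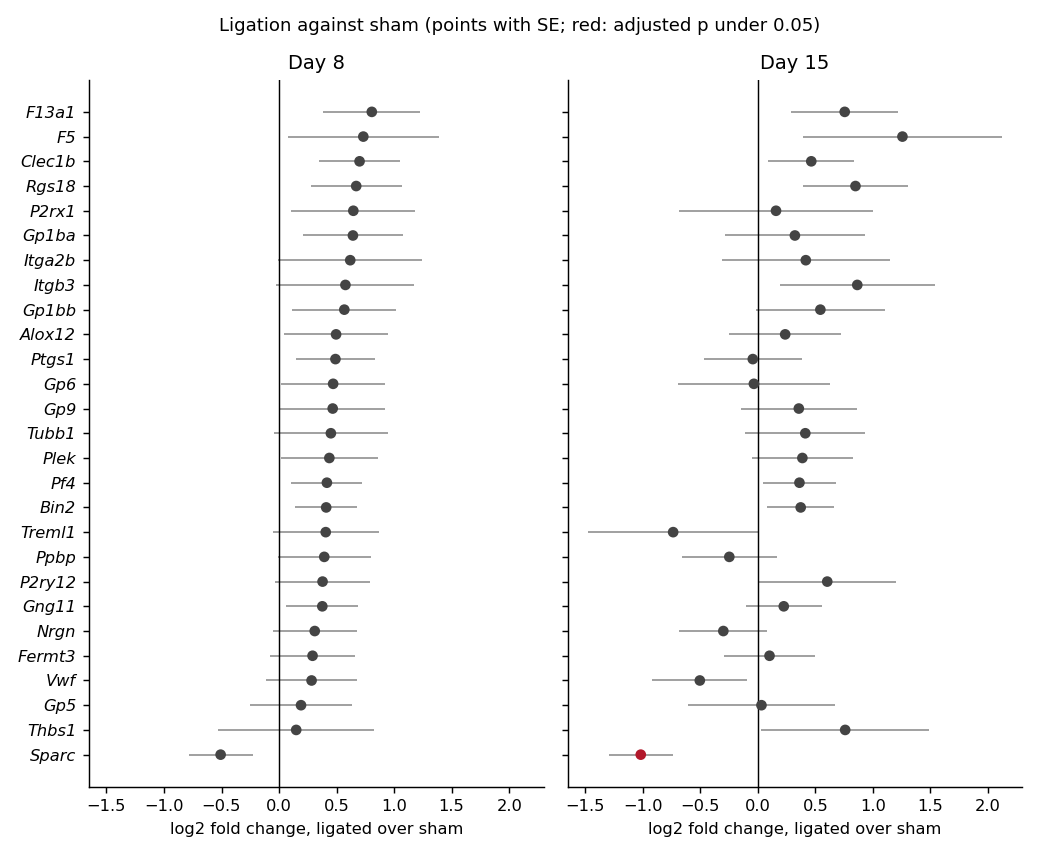
Log2 fold change of ligated over sham libraries (horizontal axis, bars give the SE) for the 27 members at day 8 and day 15, from edgeR with 6 libraries per group and no pairing by library number. Sparc at day 15 (red, -1.02) is the only member with an adjusted p under 0.05.

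Between the 2 times, 12 members fell in ligated mice and 15 did not pass the test. Compared with all 6 day 8 libraries, 12 of 27 were called lower at day 15 and 0 higher, where 2.09% of all genes were called lower and 2.26% higher. All 27 estimates were below 0 and their median was -1.42, against -0.0354 over all genes. The 12 were Itga2b (-2.90, SE 0.69, adjusted p = 0.0202), Gp1ba (-2.21, SE 0.49, adjusted p = 0.0130) and Gp5 (-2.14, SE 0.52, adjusted p = 0.0212) among the adhesion receptors, and Treml1, Gp6, P2rx1 and P2ry12 among the activating receptors, at -2.57 to -2.10. They also included F5 (-2.65), Ppbp (-1.73) and Vwf (-1.49) among granule and coagulation genes and Nrgn (-1.59) and Gng11 (-1.13) among signalling genes. With the library number as a block across both days, 7 of 27 were called lower, against 1.29% of all genes. The sample titles state no link between same-numbered libraries of the 2 days. The groups overlapped for every member, while all day 15 libraries lay below all day 8 libraries for 0.34% of all genes. Against day 8 libraries 1 to 3 alone, 0 of 27 members and 0.0% of all genes were called lower (2 members at an unadjusted p under 0.05), with a median of -0.34. Against libraries 4 to 6 alone, 26 of 27 members were called lower, and 7.9% of all genes, with a median of -2.06. The count moved with single libraries, as did the share of all genes called lower. It was 2 without ligated day 8 library 4 (0.261% of all genes), 2 without library 5 (0.238%) and 22 without library 3 (3.94%). Without ligated day 15 library 1 it was 5 (0.4% of all genes), and without library 5 it was 2 (0.191%). Gp1ba kept its call in all 12 such refits, Treml1 in 11 and P2ry12 in 10, while F5 and P2rx1 lost it in 9. In the same comparison of ligated mice, 20 of 20 hepatocyte markers were higher at day 15, with summed shares of 0.0487% to 0.469% at day 8 and 0.357% to 2.68% at day 15. Of 12 red cell markers 4 were lower, with shares of 7.71% to 16.1% and 4.25% to 9.63%. Their part in the fall of the platelet genes was not tested.

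In sham mice 0 of 27 members were called lower by edgeR, as were 0.0% of all genes, although 23 had an unadjusted p under 0.05 and the median was -1.09. DESeq2 called P2ry12 alone (-2.25, DESeq2 adjusted p = 0.0401), which had -2.33 in edgeR (SE 0.53, adjusted p = 0.146). The largest estimates were F5 at -3.18 (SE 0.82), Thbs1 at -2.74 (SE 0.75), Itga2b at -2.70 (SE 0.71) and Itgb3 at -2.42 (SE 0.67). Against libraries 1 to 3 alone the median was -0.00662 and 0 members were called lower, as were 0.0% of all genes, with 1 at an unadjusted p under 0.05. Against libraries 4 to 6 alone, 25 of 27 members were called lower, against 4.55% of all genes. The difference between the times thus followed the day 8 library numbers in both treatments. Since libraries 4 to 6 were set apart by these same counts, the calls against them describe the split and are no independent test.

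**Figure D5:**
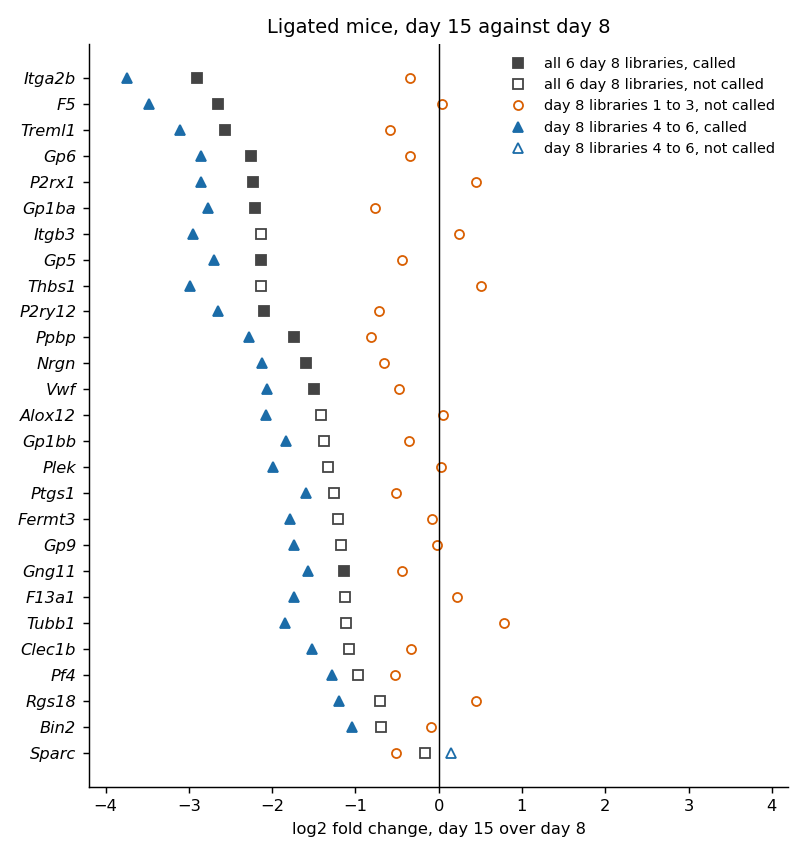
Log2 fold change of day 15 over day 8 in ligated libraries (horizontal axis) for the 27 members, against all 6 day 8 libraries (squares), libraries 1 to 3 (circles) or libraries 4 to 6 (triangles); filled symbols have an adjusted p under 0.05. The circles lie between -0.81 and 0.78 with 0 called, and the triangles reach down to -3.74 with 26 called.

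Other platelet and megakaryocyte genes, listed apart from the 31, were read from the same fits. Transcription factors of the lineage differed less between the sets of day 8 libraries: 14 tested had a median log2 difference of 0.31, 0 exceeded 1, and 0 were called in any of the 5 comparisons. The most abundant were Fli1 at 133 CPM over all libraries, Nfe2 at 86.3 and Mef2c at 79.1, with differences of 0.56, 0.56 and 0.997. The summed share of the transcription factors was 0.0619% to 0.0810% in sham libraries 1 to 3 and 0.0885% to 0.0946% in libraries 4 to 6, and 0.0378% to 0.0637% against 0.0710% to 0.0830% after ligation, so the sets did not overlap in either treatment. Counts over 1 in these lists stand beside 5.35% of all genes, and counts of lower genes in ligated mice beside 2.09%. Against day 8 libraries 1 to 3 alone, 0.0% of all genes, and so 0 in these lists, were called lower. Of 35 platelet signalling genes tested, 13 exceeded 1 and the median was 0.80. In ligated mice 10 of the 35 fell from day 8 to day 15, among them the laminin receptor subunit Itga6 (-2.63, SE 0.63, adjusted p = 0.0202), the tetraspanin Cd9 (-1.69, SE 0.40, adjusted p = 0.0202), Itgb1 (-1.65, SE 0.42) and the collagen receptor subunit Itga2 (-2.34, SE 0.60). Talin, Tln1, which activates integrins, was the most abundant of them at 713 CPM and fell by 1.23, followed by Cd9 at 510 and Gnai2 at 380, which had -0.20 (SE 0.15). Of 20 granule and secretion genes, 9 exceeded 1 between the sets of libraries, and 4 were lower at day 15 in ligated mice: Ctla2a (-1.58), Ltbp1 (-2.32), the serotonin transporter Slc6a4 (-2.11) and Serpine2 (-1.22). The chemokine Ccl5, also made by T cells, rose by 1.06 (SE 0.29, adjusted p = 0.0336). Ctla2a, Clu and Timp3 were the most abundant of this list, at 915, 262 and 134 CPM. Of 32 cytoskeletal genes, 13 exceeded 1, with a median of 0.87, and 5 fell in ligated mice, among them Clic4 (-1.14), Actn1 (-1.33), the non-muscle myosin heavy chain Myh9 (-1.24) and the myosin light chain Myl6 (-1.06). The abundant actin genes Actb (5887 CPM) and Actg1 (1923 CPM) and the actin-sequestering Tmsb4x (3602 CPM) had differences of 0.88, 0.72 and 0.89 between the sets. Ligation against sham gave 0 calls at either day in any of these lists, and of 3 genes of precursor proliferation tested (Ccnd3, Cd34 and Cdkn2d) 0 were called in any comparison.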

How the data were processed

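Paired-end RNA-seq was run on RNA of vesicles precipitated with ExoQuick from mouse plasma, in 24 libraries made with a stranded mRNA kit without rRNA depletion or poly(A) selection, per the labels' protocols. The authors deposited 1 table of expected counts, with a row per gene and a column per library. The submitters' processing notes name STAR, RSEM and hg38 without versions, whereas the file's gene IDs are mouse Ensembl IDs, and the values are whole numbers. The build and annotation of the counting are thus not given in the sources used here. All 24 columns were matched to samples by title, and libraries of 1 group differed beyond counting noise (chi-square per degree of freedom at least 1.66).

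Genes with a count of 10 or more by edgeR's expression filter (minimum total 15) were kept, 4112 of 21960, and fitted in edgeR 4.0.16 (R 4.3.3, limma 3.58.1) with TMM scaling and 1 mean per group over all 24 libraries. The quasi-likelihood F-test was two-sided, p-values were Benjamini-Hochberg adjusted over all 4112 genes and called at 0.05, and standard errors were derived from the F statistic. Normalised CPM used the same scaling. Between-gene levels were divided by annotated exon length. Gene coordinates and lengths come from GENCODE M21 (GRCm38). DESeq2 1.42.0 and the other alternatives are in the closing section. Total counts ran from 101733 to 937963 per library, and intervals and floors cover counting error only. At day 8, same-numbered sham and ligated libraries deviated together (correlation 0.165 to 0.327 in 6 of 6 pairs). At day 15 (-0.031 to 0.113, 1 of 6 over 0.1) the number was not taken to pair libraries. The main fits did not use the library number as a block at either day, so they leave out what same-numbered day 8 libraries share. Results with the block are given beside them as an alternative. The fits were tested on simulated data, drawn with the same dispersion for all genes and without the split of the day 8 libraries. That test therefore does not cover the split.

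The 31 members and all gene lists were chosen with earlier results of these data known. Members given with values per library were the 6 with the highest mean CPM, every member called in any of the 5 comparisons and the highest of each role; the others with values were added after they were seen. From each further platelet list, up to 4 called genes by smallest p and the 3 with the highest mean CPM were named. Marker genes were named after their values were seen, and 1 listed marker is not reported here.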

Additional observations from a re-analysis of the deposited data

Results flagged for a closer look

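In 8 of 112 groups of 6 libraries examined (28 quantities in 4 groups), 1 library stood apart by a gap to its nearest neighbour that exceeded Dixon's 95% critical value as a share of the group's range; chance gives about 1 in 20. Sham day 15 library 2 was the highest of its group for Gp1bb (142 normalised CPM, others 5.79 to 37.1), Tubb1 (310, others 123 to 192) and Plek (518, others 217 to 286). Sham day 8 library 6 was the highest for Thbs1 (4073, others 95.6 to 1302) and P2rx1 (165, others 8.58 to 60.5). Sham day 15 library 1 was the highest for Vwf (941, others 185 to 359), and ligated day 15 library 3 for Alox12 (249, others 127 to 165). Ligated day 15 library 6 was the lowest for Gp1bb (38.0, others 60.9 to 70.0).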

How the results depend on the processing

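Settings tried were RLE factors, DESeq2, no filter on low counts, removal of Lars2 and hemoglobin genes, the library number as a replicate block, only that day's libraries, day 8 libraries 1 to 3 or 4 to 6 alone, these sets as a model term, and each library left out. The block was set within each day for ligation and across both days for time. For day 15 and time, the term was added after seeing the data, as were the day 15 fits that leave out a library. Shares of all genes called in the same direction and fit are in parentheses. At day 8, members called higher went from 0 to 1 without the filter (F13a1; 1.41%), with the block (4.11%) and with the term (4.06%), both Clec1b. At day 15 they went from 0 to 3 without the filter (2.96%) and 1 with the term (F5; 4.23%), and in day 15 libraries alone to 7 without sham replicate 2 (6.0%) and 1 without sham replicate 6 (3.73%) or ligated replicate 6 (3.84%). The single lower call, Sparc, gave 0 to 1 when libraries were left out. In sham mice, members lower at day 15 went from 0 to 24 without the filter (0.599%), 1 with DESeq2 (0.0973%), 25 against libraries 4 to 6 (4.55%) and 6 with the term (0.462%). In ligated mice they went from 12 to 27 without the filter (1.47%), 7 with the block (1.29%), 0 against libraries 1 to 3 (0.0%), 26 against 4 to 6 (7.9%), 19 with the term (2.85%) and 2 to 22 when libraries were left out (0.191% to 3.94%). Against libraries 1 to 3, P2rx1 (0.45) and F5 (0.046) reversed. The log2 change of the summed share from day 8 to day 15 went from -1.29 to -0.098 in sham and from -1.58 to -0.0999 in ligated mice with libraries 1 to 3 alone. The causes were not tested. The block changed no other count of members called at an adjusted p of 0.05; members at an unadjusted p under 0.05 went from 0 to 9 at day 8 and from 1 to 7 at day 15, and all genes called lower from 44 to 71 at day 15 and from 86 to 53 in ligated mice over time. Low counts limit Treml1, P2rx1 and the members that were not tested.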
